A study of Homo sapiens with 8 samples.

Results

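The genes described here are the plasminogen activators PLAT and PLAU, the urokinase receptor PLAUR and the protease inhibitors SERPINE2 and SERPINB2. Their probe sets were taken where the platform annotation gave exactly 1 symbol and it was among these 5. This found 4 of 8746 probe sets on the 12 h arrays and 7 of 22215 on the 6 h arrays, which stand for 4 of the 5 genes. No probe set carried SERPINB2 as its only symbol in the annotation used, so its level is not analysed here. The genes were chosen with the 12 h difference between treated and mock cells already known, so their 12 h values are given as a description, with no p-value.

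Plasminogen activators are secreted serine proteases that cut plasminogen into plasmin, which dissolves fibrin and degrades extracellular matrix. PLAT encodes tissue-type activator, which works mainly on fibrin, and PLAU encodes urokinase, which works largely at the cell surface on its anchored receptor, the product of PLAUR. SERPINE2 encodes protease nexin, a secreted serpin of fibroblasts that inhibits thrombin, urokinase and tissue-type activator, and SERPINB2 encodes an inhibitor of plasminogen activators that is largely kept in the cell.

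MRC5 is a cell line of lung fibroblasts with a normal chromosome set. The cells received either 10 µM of the oxidised base 8-oxoguanine in its free form, or the solvent alone as a mock treatment. Their total RNA was measured on 8 arrays, with 3 treated and 3 mock arrays at 12 h, and 1 treated and 1 mock array, of a larger type, at 6 h. The labels call the 12 h samples technical replicates by extract, all from 1 cell line, and do not name separate cultures. The p-values, SDs and SEs here therefore measure a spread between extracts that the labels call technical. Whether they cover any spread between cultures is not known. Values are the deposited signal intensities, on a linear scale, and the number of arrays limits their precision.

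All 9 fibroblast markers on the 12 h arrays had a mean signal above the limit used to leave out dim probe sets (93.9), among them COL1A1, COL1A2, COL3A1, VIM and THY1, with a summed signal of 61470 to 75523 on treated and 62423 to 75867 on mock arrays. None of 5 epithelial markers, 1 of 5 endothelial markers (PECAM1) and 1 of 3 blood markers (CD3E) did, and the summed signals of these types overlapped between the groups. The ratio of the 3' to the 5' signal of the ACTB control, a sign of RNA quality, was 0.999 to 1.07 on treated and 0.889 to 0.995 on mock arrays at 12 h. That of GAPDH overlapped, at 0.802 to 0.843 on treated and 0.779 to 0.826 on mock arrays. The part of the ACTB difference in the values below was not tested.

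The 250 bases before the annotated starts of PLAU, PLAUR and SERPINE2 are shown because the first 2 genes were lower in treated cells at 12 h and SERPINE2 was not. They come from RefSeq (GRCh38.p14), 5′ to 3′ on the gene's strand, and nothing in the files says which start these cells used. PLAT was lower too, but the sources used here held no such sequence for it, so its window was not searched. Capitals mark matches on both strands to any of 4 motifs. The AP-1 motif was searched as TGANTCA. The GC box was searched as GGGCGG. The CCAAT box was searched by its name's letters. The E-box was searched as CACGTG. No match overlapped another.
PLAU, downstream start, chr10:73910882-73911131, plus strand: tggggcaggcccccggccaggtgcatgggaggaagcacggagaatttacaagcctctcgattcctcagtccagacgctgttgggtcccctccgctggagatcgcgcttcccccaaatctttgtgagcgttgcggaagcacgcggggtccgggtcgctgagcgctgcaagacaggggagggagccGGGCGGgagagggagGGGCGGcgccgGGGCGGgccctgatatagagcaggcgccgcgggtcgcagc
PLAU, upstream start, chr10:73910360-73910609, plus strand: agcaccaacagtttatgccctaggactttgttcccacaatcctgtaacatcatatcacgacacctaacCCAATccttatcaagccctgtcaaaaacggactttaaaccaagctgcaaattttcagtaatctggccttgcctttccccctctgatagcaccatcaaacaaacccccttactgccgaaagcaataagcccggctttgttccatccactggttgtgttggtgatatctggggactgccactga
PLAUR, chr19:43670170-43670419, minus strand: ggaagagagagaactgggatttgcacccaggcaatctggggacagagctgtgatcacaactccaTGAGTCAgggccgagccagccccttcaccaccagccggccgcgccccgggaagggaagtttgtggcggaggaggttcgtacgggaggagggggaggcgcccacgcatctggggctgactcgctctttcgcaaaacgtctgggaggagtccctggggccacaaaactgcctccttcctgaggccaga
SERPINE2, upstream start, chr2:224038641-224038890, minus strand: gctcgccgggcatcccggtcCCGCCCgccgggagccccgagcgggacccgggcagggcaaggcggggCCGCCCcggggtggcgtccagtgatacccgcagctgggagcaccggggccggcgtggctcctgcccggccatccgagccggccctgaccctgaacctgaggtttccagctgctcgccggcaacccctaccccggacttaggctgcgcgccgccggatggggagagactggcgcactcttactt
SERPINE2, downstream start, chr2:224031479-224031728, minus strand: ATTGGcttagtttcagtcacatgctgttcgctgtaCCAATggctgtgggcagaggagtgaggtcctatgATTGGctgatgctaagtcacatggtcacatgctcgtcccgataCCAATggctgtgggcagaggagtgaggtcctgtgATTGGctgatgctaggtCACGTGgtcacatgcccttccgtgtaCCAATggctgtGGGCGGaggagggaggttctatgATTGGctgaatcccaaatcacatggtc

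PLAUR held the only AP-1 match of the 5 windows, TGAGTCA at bases -186 to -180 from its start, a motif found in 6.57% of all 35116 RefSeq windows of this length. The downstream start of PLAU had 3 GC boxes, with first bases at -66, -51 and -40, while 42.6% of all windows held at least 1, and its upstream start had no GC box and 1 CCAAT match at -182. The downstream start of SERPINE2 held 7 CCAAT matches, 1 E-box and 1 GC box at -50, and its upstream start held 2 GC boxes. CCAAT matches were found in 32% of windows and E-boxes in 6.34%. A match is a description of these letters and not a sign of binding.

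PLAT showed the largest difference of the 4 measured genes at 12 h. Its signal was 1007, 996 and 949.9 on the 3 treated arrays, against 2210, 2432 and 2291 on the 3 mock arrays. The groups did not overlap, and the highest treated array lay 1203 below the lowest mock array. The means were 984 ± 30.2 in treated and 2311 ± 113 in mock cells (SD, n = 3), which is a log2 fold change of -1.23 (SE 0.07), so treated cells had 42.6% of the mock level. In order of log2 fold change from the lowest, PLAT stood at place 15 of 5248 probe sets.

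PLAU, the other activator, had a signal of 2279, 1995 and 2139 on treated arrays, against 3338, 3742 and 3472 on mock arrays. All 3 treated arrays lay below all 3 mock arrays. The means were 2138 ± 142 in treated and 3517 ± 206 in mock cells (SD, n = 3), which is a log2 fold change of -0.72 (SE 0.08), or 60.8% of the mock level. PLAUR, which holds urokinase at the cell surface, had 1242, 1115 and 1023 on treated arrays, against 1470, 1576 and 1556 on mock arrays. Here too the groups did not overlap, though the gap between them was 228 and the treated arrays spread more widely, with a coefficient of variation of 9.79% against 3.66% in mock arrays. The log2 fold change of PLAUR was -0.45 (SE 0.09), or 73.2% of the mock level.

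SERPINE2, the inhibitor, was not lower. Its signal was 7292, 7129 and 7550 on treated arrays, against 7072, 6671 and 7352 on mock arrays, and the groups overlapped. The means were 7324 ± 213 in treated and 7032 ± 342 in mock cells (SD, n = 3), which is a log2 fold change of 0.06 (SE 0.07). In limma's fit over all probe sets, 3 of the 4 genes, PLAT, PLAU and PLAUR, passed the threshold of 0.05 and were lower, where 6.65% of all tested probe sets were called lower and 13.2% in either direction. The same 3 were lower with no overlap between the groups, as were 16.5% of all tested probe sets. Since the genes were chosen on this contrast, nothing is read from these counts. In bulk RNA, fewer cells that express a gene and less RNA per cell cannot be told apart.

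**Figure D1:**
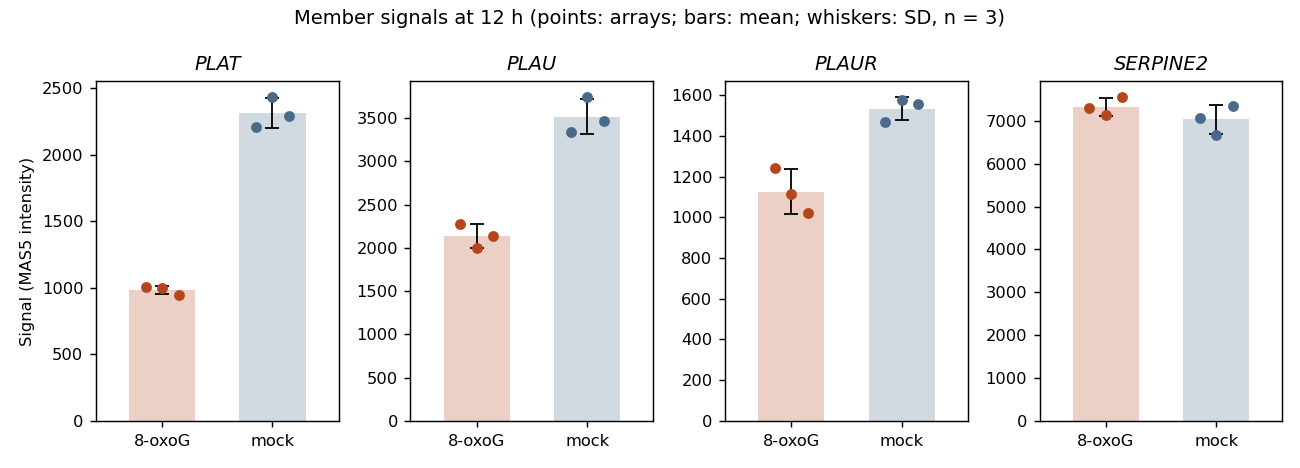
Signal (MAS5 intensity, linear axis from 0) of PLAT, PLAU, PLAUR and SERPINE2 on the 3 treated (8-oxoG, left) and 3 mock (right) arrays at 12 h, with points for arrays, bars for means and whiskers for SD. The treated points of PLAT, PLAU and PLAUR lie below every mock point, and those of SERPINE2 overlap with mock.

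The ratio of 2 signals on the same array does not change with a factor applied to that whole array. It can change with scaling that depends on brightness, such as quantile normalization. With that scaling the 12 h log2 fold changes were -1.22 for PLAT, -0.72 for PLAU, -0.44 for PLAUR and 0.01 for SERPINE2. The absolute height of a ratio depends on the probes. Each ratio of the deposited signals was therefore set to a mean of 0 on the mock arrays, on the log2 scale. PLAT over SERPINE2 was then -1.25, -1.23 and -1.39 on treated arrays, against -0.07, 0.15 and -0.08 on mock arrays. PLAU over SERPINE2 was -0.68, -0.84 and -0.82 on treated arrays, against -0.08, 0.17 and -0.08 on mock arrays. The balance of activator to inhibitor transcript was thus lower on every treated array, by 1.29 (SE 0.09) for PLAT and by 0.78 (SE 0.10) for PLAU.

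PLAUR over SERPINE2 was -0.36, -0.48 and -0.69 on treated arrays, against -0.07, 0.11 and -0.04 on mock arrays. The genes also differed among themselves. PLAT over PLAU was -0.57, -0.40 and -0.57 on treated arrays, against 0.01, -0.02 and 0.01 on mock arrays, so the difference from mock was larger for PLAT than for PLAU on every treated array. PLAT over PLAUR differed by -0.78 (SE 0.06) between treated and mock arrays. PLAU over PLAUR differed least, by -0.27 (SE 0.07), with values of -0.32, -0.36 and -0.13 on treated arrays, against -0.01, 0.05 and -0.04 on mock arrays.

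**Figure D2:**
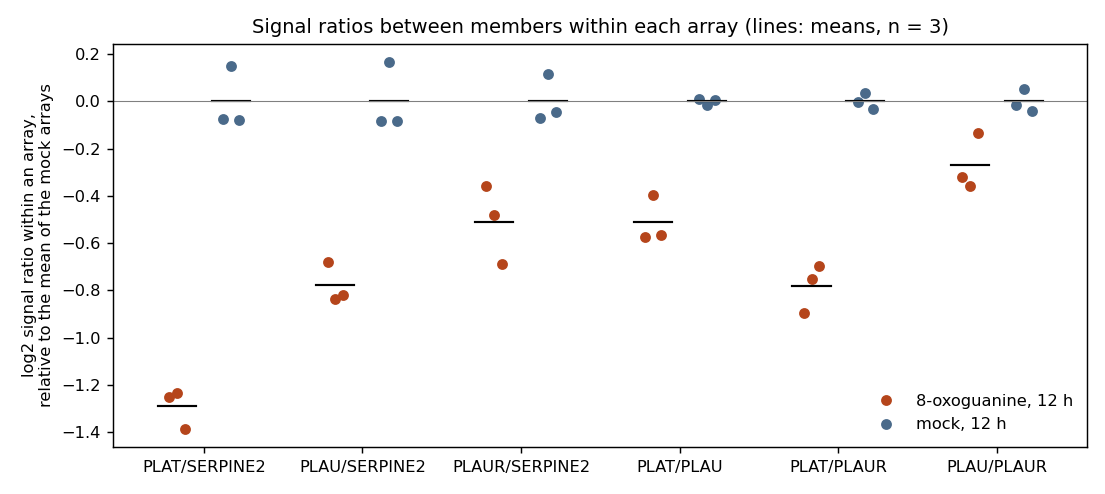
Log2 ratio of the signals of 2 genes within each array at 12 h, relative to the mean of the mock arrays, with treated arrays left of mock arrays, points for arrays and lines for means (n = 3). In all 6 ratios the treated points lie below the mock points, furthest for PLAT over SERPINE2 and least for PLAU over PLAUR.

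The probe sets whose log2 signals ran most like each gene's over the 6 arrays of 12 h were found by Pearson's r. This likeness is a description, since arrays of both treatments enter it and the gap between treatments carries most of it. For PLAT they were BNIP3, a mitophagy receptor (r = 0.999), and ID1, an inhibitor of helix-loop-helix factors (r = 0.997). For PLAU they were CCNA2, a cyclin of dividing cells (r = 0.997), and ACP6, a lysophosphatidic acid phosphatase (r = 0.996). For PLAUR they were AK4, a mitochondrial adenylate kinase (r = 0.993), and FKBP11, a prolyl isomerase of the secretory pathway (r = 0.990).

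Likeness in shape did not mean likeness in size. The log2 fold changes were -0.84 (SE 0.07) for BNIP3 and -2.09 (SE 0.08) for ID1 beside -1.23 for PLAT, and -0.98 (SE 0.11) for CCNA2 and -0.23 (SE 0.09) for ACP6 beside -0.72 for PLAU. Those of AK4 and FKBP11 were -0.51 (SE 0.09) and -0.46 (SE 0.09), beside -0.45 for PLAUR. SERPINE2 had TACR3, a tachykinin receptor (r = 0.995), and DNPH1, a nucleotide hydrolase (r = 0.985), where the order follows differences between single arrays. Their log2 fold changes were 0.33 (SE 0.22) and 0.16 (SE 0.10). TACR3 had a low signal, with means of 151 ± 21.8 in treated and 122 ± 27.2 in mock cells (SD, n = 3).

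The partners of the plasminogen system answer whether other genes of the pathway moved at 12 h. The list of 39 genes holds binding sites for plasminogen and its activators, clearance receptors, integrins and other partners of the urokinase receptor, and proteins of coagulation. On the 12 h arrays 33 had a probe set and 22 passed the filter on dim signals. Of these, 3 fell, none rose and 19 did not pass, which is 13.6% called against 13.2% of all probe sets tested, so in this fit the share was near that background. Their median log2 fold change was -0.06, against 0.01 over all probe sets tested.

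The 3 that fell were F3, ITGA5 and ENO1. F3 encodes tissue factor, the cell-surface trigger of coagulation, and had a signal of 593, 510 and 328 on treated arrays, against 980, 774 and 1031 on mock arrays. The groups did not overlap, and the log2 fold change was -0.99 (SE 0.20; adjusted p = 0.0107). ITGA5, the alpha chain of the fibronectin receptor, had 1154, 1134 and 1236 on treated arrays, against 1744, 1880 and 1784 on mock arrays, a log2 fold change of -0.62 (SE 0.07; adjusted p = 0.000762). ENO1, an enolase that also binds plasminogen at the cell surface, had 6928, 6966 and 7643 on treated arrays, against 8672, 9421 and 8842 on mock arrays, a log2 fold change of -0.32 (SE 0.07; adjusted p = 0.0165). The call of ENO1 was lost without 8-oxoguanine extract 1 (adjusted p = 0.0891), without 8-oxoguanine extract 2 (0.0768), without mock extract 3 (0.0507), with no intensity trend (0.0650) and, narrowly, with the extract number as a block, its adjusted p ranging from 0.00135 to 0.0891. The calls of F3 and ITGA5 held under all 13 alternatives.

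Among the partners that did not pass, F2R, the thrombin receptor, had the largest difference, 0.61 (SE 0.22; adjusted p = 0.101). Its signal was 770, 987 and 778 on treated arrays, against 807, 395 and 527 on mock arrays, so the groups overlapped through mock extract 1, and without that array the log2 fold change was 0.88 (adjusted p = 0.0115, within a range of 0.0115 to 0.272 over all alternatives). Without mock extract 2 it was 0.36 (adjusted p = 0.230). KRT8, a keratin that binds plasminogen, had 0.49 (SE 0.19; adjusted p = 0.117). The probe sets of both carry the suffix that marks possible cross-hybridisation, so these values are uncertain.

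PRNP, VLDLR and CKAP4 were named after their values were seen, since they lay just outside the threshold with groups that did not overlap. PRNP, the prion protein, had a log2 fold change of 0.30 (SE 0.09; adjusted p = 0.0501). VLDLR, a receptor that clears complexes of activator and inhibitor, had 0.32 (SE 0.09; adjusted p = 0.0532), and CKAP4, a membrane protein that binds tissue-type activator, had -0.24 (SE 0.07; adjusted p = 0.0594). LRP1, the main clearance receptor of such complexes, had -0.01 (SE 0.11; adjusted p = 0.973). The share of called partners moved with the setting: it was 5 of 22 (22.7%) without mock extract 1, where PRNP and F2R joined, against 9.93% of all probe sets in that fit. With quantile normalization it was 6 of 22 (27.3%), against 13.9% of all, and with the stricter filter on dim probe sets 6 of 17 (35.3%), against 20.8%.

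Of 25 other serpins, 23 had a probe set on the 12 h arrays, 15 of these were too dim and 8 were tested. SERPINF1, which encodes the secreted anti-angiogenic factor PEDF, rose, and the other 7 did not pass (12.5% called, against 13.2% of all probe sets tested). Its signal was 1054, 1067 and 1102 on treated arrays, against 704, 645 and 736 on mock arrays, with no overlap, a log2 fold change of 0.63 (SE 0.08; adjusted p = 0.00127). SERPINA3, an inhibitor of chymotrypsin-like proteases, had 0.79 (SE 0.24; adjusted p = 0.0533) from a dim signal of 147 ± 20.8 in treated and 85.7 ± 20.8 in mock cells (SD, n = 3), the mock mean being under the limit for dim probe sets. SERPING1, the complement C1 inhibitor, had 0.33 (SE 0.16; adjusted p = 0.217). Without mock extract 1, both of these passed and 3 of 8 serpins (37.5%) were called, while without mock extract 2 SERPING1 had 0.18 (adjusted p = 0.476). Also, without 8-oxoguanine extract 3, SERPINH1, a collagen chaperone, was called as lower, while SERPINF1 was still called as higher. With all arrays SERPINH1 had -0.29 (SE 0.09; adjusted p = 0.0660).

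Of 22 transcription factors listed as candidate regulators of the PLAU, PLAUR and PLAT genes, mainly of the AP-1 and ETS families, 19 were tested. Of these 3 rose, 1 fell and 15 did not pass, which is 21.1% called against 13.2% of all probe sets tested, with a median log2 fold change of 0.07. FOSL1, a FOS-family partner in AP-1, fell: its signal was 767, 619 and 892 on treated arrays, against 1145, 1103 and 1099.9 on mock arrays, a log2 fold change of -0.57 (SE 0.12; adjusted p = 0.0140). JUND, a JUN-family partner, rose, with 3723, 3756 and 4142 on treated arrays, against 2823, 3080 and 2720 on mock arrays, a log2 fold change of 0.43 (SE 0.08; adjusted p = 0.00593).

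ATF3, which is induced by many stresses, rose by 1.06 (SE 0.11; adjusted p = 0.000325), and NFKB1, a subunit of NF-kB, by 0.48 (SE 0.09; adjusted p = 0.00697). The AP-1 factors thus did not move one way. SMAD2 and FOS had 0.37 (SE 0.12; adjusted p = 0.0648) and 0.22 (SE 0.08; adjusted p = 0.104), and JUN, FOSB, FOSL2, ETS1 and ETS2 had log2 fold changes between -0.17 (ETS1) and 0.04 (FOSB). The JUN probe set tested at 12 h had a low signal, with means of 215 in treated and 226 in mock cells. On the 6 h arrays it read 307 (treated) and 333 (mock), where another JUN probe set read 4194 and 3665. The 12 h value of JUN is therefore uncertain. The 4 calls held under all 13 alternatives.

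**Figure D3:**
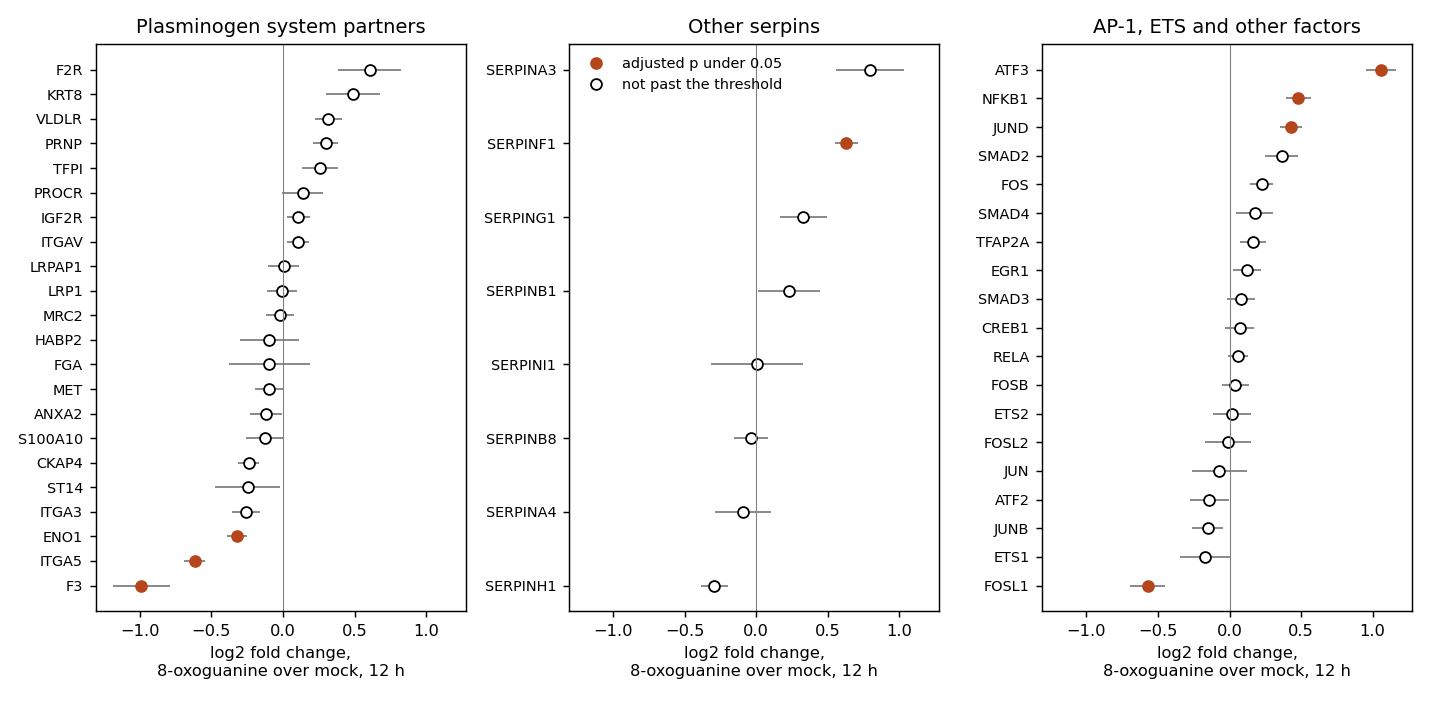
Log2 fold change at 12 h (8-oxoguanine over mock, whiskers: SE from limma's fit, 3 arrays per group) of the tested genes of the 3 lists. Filled points passed the adjusted threshold of 0.05, with F3, ITGA5, ENO1 and FOSL1 below 0 and SERPINF1, ATF3, NFKB1 and JUND above 0.

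The 6 h samples were 1 treated and 1 mock array, so these ratios have no replicates and were not tested. The 6 h arrays are of another type and were scaled apart from the 12 h arrays, so levels are compared only within a time. PLAT was again lower in treated cells, at 2573 on the treated and 3114 on the mock array, which is a log2 ratio of -0.28. It kept its sign with median centring (-0.16) and with quantile normalization (-0.32). Of the probe sets kept at 6 h, 22.1% had a lower ratio as deposited, so a difference of this size was common among them.

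PLAU was read by 2 probe sets at 6 h. The probe set shared with the 12 h arrays read 4676 on the treated and 3655 on the mock array (log2 ratio 0.36). The other read 3655 on the treated and 3498 on the mock array, a ratio of 0.063 that turned to -0.031 with quantile normalization. PLAU was thus not lower at 6 h in the values as deposited, and its probe sets disagreed on the size of the difference.

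PLAUR was read by 3 probe sets at 6 h. The one shared with the 12 h arrays read 2321 on the treated and 2291 on the mock array (log2 ratio 0.019). The others had 1617 and 562 on the treated array, against 1428 and 608 on the mock array, with ratios of 0.18 and -0.11, and the last turned to 0.0015 with median centring. Treated and mock cells were close at this time, and the probe sets of PLAUR did not share a direction.

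SERPINE2 at 6 h read 11204 on the treated and 7428 on the mock array (log2 ratio 0.59). It was the only probe set of the 7 past 1.5-fold, as were 8.76% of the 11108 probe sets kept at 6 h. The 419 probe sets with a mean signal of 6000 or more at 6 h had a median log2 ratio of 0.61, against -0.03 over all kept probe sets. With quantile normalization the ratio of SERPINE2 turned to -0.10, and the median of those bright probe sets became 0.01. Its difference at 6 h was therefore of the size seen at other bright probe sets, and its sign rests on the scaling.

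**Figure D4:**
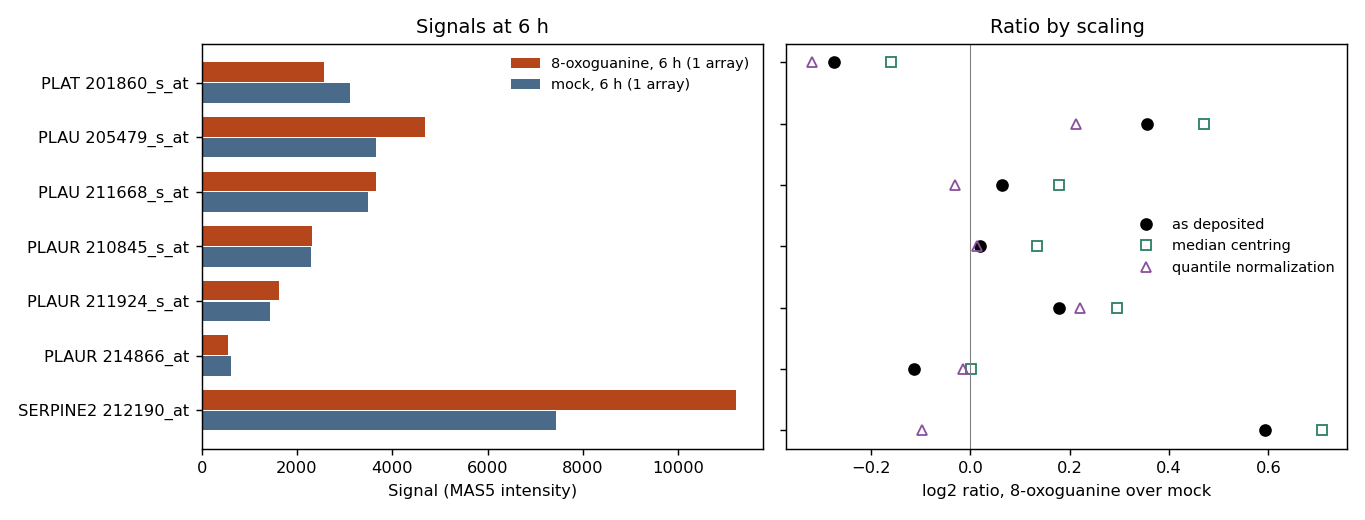
Left, signal (MAS5 intensity, linear axis from 0) of the 7 probe sets on the treated and the mock array at 6 h (1 array each). Right, their log2 ratio, 8-oxoguanine over mock, as deposited and under 2 other scalings, where PLAT stays below 0 and SERPINE2 changes sign with quantile normalization.

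Of the partners of the plasminogen system, 22 were kept at 6 h, with a median log2 ratio of -0.10, against -0.03 over all kept probe sets. Of these 4 (18.2%) were past 1.5-fold, where 8.76% of all kept probe sets were. The 4, named after their values were seen, were ANXA2, a receptor for plasminogen and tissue-type activator (1.01), ITGB1, the beta chain of the fibronectin receptor (0.67), HGF, a growth factor related to plasminogen (-0.79), and F2R (-1.34). With quantile normalization ANXA2 and ITGB1 had 0.29 and 0.01, while HGF and F2R had -0.70 and -1.30. The probe sets of HGF disagreed, with log2 ratios of -0.79 to 0.54 over 5. Those of ANXA2 and F2R carry the suffix that marks possible cross-hybridisation, so their ratios are uncertain. Of the 3 partners called at 12 h, F3 had -0.06, ITGA5 0.14 and ENO1 0.51 at 6 h, the last turning to -0.23 with quantile normalization. Of 5 other serpins kept at 6 h none was past 1.5-fold, and of 19 factors (5.26%) only ATF2 was, at -1.18 on its brightest probe set and -0.013 on the other, which is the one of the 12 h arrays.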

How the data were processed

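RNA was hybridised to single-colour short-oligonucleotide arrays. The deposited values are 1 linear intensity for each probe set on each array, computed by the authors with MAS5 per the submitters' processing notes. Its version and settings, and a genome build, were not given in the sources used here. After removal of the lowest and highest 2%, array means were 500.1 to 500.5, which shows scaling to a shared level, and array medians were 143 to 165. Treatment and time labels set the groups. For 6 samples the time label says 12 h where the treatment protocol says 6 h, and the label was used.

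Log2 intensities were analysed as deposited, without control probe sets. Dim probe sets, under the 40th percentile of mean log2 signal at 12 h and the 50th at 6 h (a signal of 148), were removed, leaving 5248 of 8746 and 11108 of 22215. Names came from the platform annotation, which gave 1 symbol to 7840 probe sets at 12 h and 19064 at 6 h, several to 388 and 1043, and none to 518 and 2108.

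The 12 h comparison used limma 3.58.1 (R 4.3.3; lmFit, then two-sided eBayes with intensity trend) and Benjamini-Hochberg adjustment over all probe sets kept, which gives every adjusted p in the text. It was tested on simulated data with known changes. Lists used the brightest probe set of a gene. Named were all member probe sets, the genes of each list past the threshold and the 2 with the largest change among the rest, and the 2 probe sets most like each member. The members and lists were chosen with earlier results of these data known. The closing section gives the effect of other scalings, filters and models.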

Additional observations from a re-analysis of the deposited data

Results flagged for a closer look

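For some probe sets the 6 h log2 ratio had the opposite sign to the difference at 12 h, where the groups did not overlap. With 1 array per treatment at 6 h and another array type, whether the 2 times differ was not tested.

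PLAU had a log2 ratio of 0.36 at 6 h and a log2 fold change of -0.72 at 12 h, while its other probe set at 6 h had 0.063, or -0.031 with quantile normalization. PLAUR had 0.019 at 6 h and -0.45 at 12 h. ENO1 had 0.51 at 6 h and -0.32 at 12 h, and with quantile normalization its 6 h ratio was -0.23, the direction of 12 h. ITGA5 had 0.14 at 6 h and -0.62 at 12 h, and FOSL1 had 0.075 at 6 h and -0.57 at 12 h. The 6 h ratios of FOSL1 and of the PLAUR probe set on both array types lay within 0.1 of 0 as deposited. These were thus close to equal at 6 h, while the other PLAUR probe sets had 0.18 and -0.11. ATF3 had -0.14 at 6 h and 1.06 at 12 h, and its 6 h signals of 135 on the treated and 149 on the mock array averaged under the limit for dim probe sets at that time (148).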

How the results depend on the processing

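The log2 fold changes of PLAT, PLAU, PLAUR and SERPINE2 at 12 h kept their sign under all 13 alternatives and moved by less than the spread between arrays, with ranges of -1.26 to -1.19, -0.77 to -0.67, -0.52 to -0.38 and 0.01 to 0.09. Of all probe sets, 695 were called, and 371 to 649 when 1 array was left out, with 371 without 8-oxoguanine extract 1, 386 without 8-oxoguanine extract 2 and 451 without mock extract 3. Partners called were 6 with quantile normalization (27.3%, against 13.9% of all probe sets in that fit), 6 with the stricter filter (35.3%, against 20.8%), and 2 to 5 when 1 array was left out. Other serpins called were 2 with median centring, with quantile normalization and with no intensity trend, and 1 to 3 when 1 array was left out. Every tested list gene had 1 kept probe set at 12 h, so the mean of probe sets changed nothing. Tried were quantile normalization, median centring, a filter at the 60th percentile and none, the 20th percentile of the signals added before log2, no intensity trend, the extract number as a block and each 12 h array left out. The cause of these shifts was not tested.

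The extract numbers were not shown to pair the arrays, since the correlations of the deviations of same-numbered arrays were 0.08, -0.15 and -0.05 across probe sets. With the extract number as a block, 513 probe sets, 2 partners, 1 other serpin and 4 factors were called, and the call of ENO1 was the only lost call among the named genes.

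At 6 h median centring gave -0.16 for PLAT, 0.47 and 0.18 for PLAU, 0.13, 0.29 and 0.0015 for PLAUR, and 0.71 for SERPINE2, a shift of 0.12 for every probe set. Quantile normalization gave 0.21 and -0.031 for PLAU and -0.10 for SERPINE2. Signs turned for PLAUR (0.0015), PLAU (-0.031) and SERPINE2 (-0.10). The 6 h values rest on 1 array each, and dim genes such as SERPINA3 have uncertain sizes.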

Other observations

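ANXA2 and S100A10, which form a complex that binds tissue-type activator and plasminogen at the cell surface, were picked after their values were seen. ANXA2 had a signal of 13563, 12874 and 16524 on treated arrays, against 13869, 17273 and 15450 on mock arrays. Its probe set carries the suffix that marks possible cross-hybridisation, so these values are uncertain. S100A10 had 4088, 4124 and 5604 on treated arrays, against 4288, 5467 and 5201 on mock arrays. The groups overlapped for both genes, and neither passed between the groups, with log2 fold changes of -0.12 (SE 0.11; adjusted p = 0.535) for ANXA2 and -0.12 (SE 0.13; adjusted p = 0.602) for S100A10.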
